A study of Mus musculus with 9 samples.

Results

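Genes of T lymphocytes and natural killer (NK) cells were followed in RNA-seq libraries of mouse peritoneal macrophages, the phagocytes of the abdominal cavity. The set was a list of 38 gene symbols, chosen by what the genes do: parts of the T cell receptor, the signalling proteins and transcription factors of T cells, and the receptors and granule proteins of NK and cytotoxic T cells. All 38 were found among the 55335 rows of the expression table. The rule names symbols and uses no measured value.

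The T cell receptor is a pair of variable chains, alpha with beta or gamma with delta, held in the membrane by the CD3 and zeta chains. The CD4 and CD8 coreceptors bring the kinase Lck to it. Lck phosphorylates the CD3 and zeta tails, Zap70 docks there, and the adaptor Lat passes the signal on. NK cells lack this receptor, read their targets through Ncr1 and Klr family receptors, and share with cytotoxic T cells the granule proteins perforin and granzymes. T, NK and B lymphocytes live beside macrophages in the peritoneal cavity.

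The study asks, by its title, how alcohol changes macrophage polarization and whether TRPV1 and the MAPK and NF-kB pathways take part. All 9 libraries came from cells kept for 1 h in RPMI 1640 medium and then stimulated for 4 h with 1 µg/mL lipopolysaccharide (LPS), a cell wall component of Gram-negative bacteria. The 3 groups of 3 libraries each were LPS alone, LPS with 5% EtOH (LPS+EtOH), and LPS with 100 µM of CPZ, an agent whose name is not written out in the sources used here (LPS+CPZ). Each library was a pool of 3 RNA samples, and the labels do not say how many animals stood behind a pool, so p-values measure the spread between pools, which may be partly technical. Strain, sex and age are not given in the labels, and unstimulated cells or a solvent control for CPZ are not analysed here. A comparison with LPS is therefore a comparison with stimulated cells, and both such comparisons share the same 3 LPS libraries.

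Values are FPKM, fragments scaled for transcript length and for the mapped fragments of the library, as deposited by the authors. The total per library was 302126 to 363356 FPKM, and the number of fragments behind a library is not known. Genes at 1 FPKM or more numbered 11096 to 11266 under LPS, 8024 to 8366 under LPS+EtOH and 10135 to 10625 under LPS+CPZ. Globin transcripts made up 11.5 to 29.4% of all FPKM under LPS, most in replicate 3, and at most 0.221% under LPS+EtOH and 0.0972% under LPS+CPZ. None of 14 macrophage markers was at 0 in all libraries of a group, but they did not move together: of the 12 tested, 4 were called higher and 7 lower in LPS+EtOH than in LPS. Over all 11721 genes tested, 19.0% were called higher and 64.6% lower. The receptor Cd14 averaged 907 ± 148 FPKM under LPS, 2177 ± 221 under LPS+EtOH and 406 ± 17.0 under LPS+CPZ, while lysozyme (Lyz2) went from 733 ± 97.7 to 226 ± 50.4 and 217 ± 70.9 (SD, n = 3). The libraries labelled as macrophages also held lymphocyte transcripts, and in LPS more of them than in the other groups.

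The summed level of the T and NK cell genes was 167, 186 and 231 FPKM in the LPS libraries, 8.26, 10.9 and 6.77 FPKM in LPS+EtOH, and 48.1, 77.2 and 49.2 FPKM in LPS+CPZ. LPS was highest, LPS+EtOH lowest and LPS+CPZ between them, with no overlap between any groups. The group mean in LPS+EtOH was 4.43% and that in LPS+CPZ 29.8% of the LPS mean. A mean of at least 1 FPKM was reached by 32 of the 38 genes under LPS alone, by 0 under LPS+EtOH and by 14 under LPS+CPZ. In LPS+EtOH, 14 genes were listed at 0 in at least 1 library, and Cd7 and Klrb1c in all 3. A pair of libraries stood apart within their groups. LPS+CPZ replicate 2 held the highest value of its group for 33 of the 38, against 43.8% of the 11721 genes tested, and LPS replicate 3 for 35 of the 38, against 34.5%. In bulk libraries, fewer T or NK cells and less RNA of these genes per cell cannot be told apart.

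**Figure D1:**
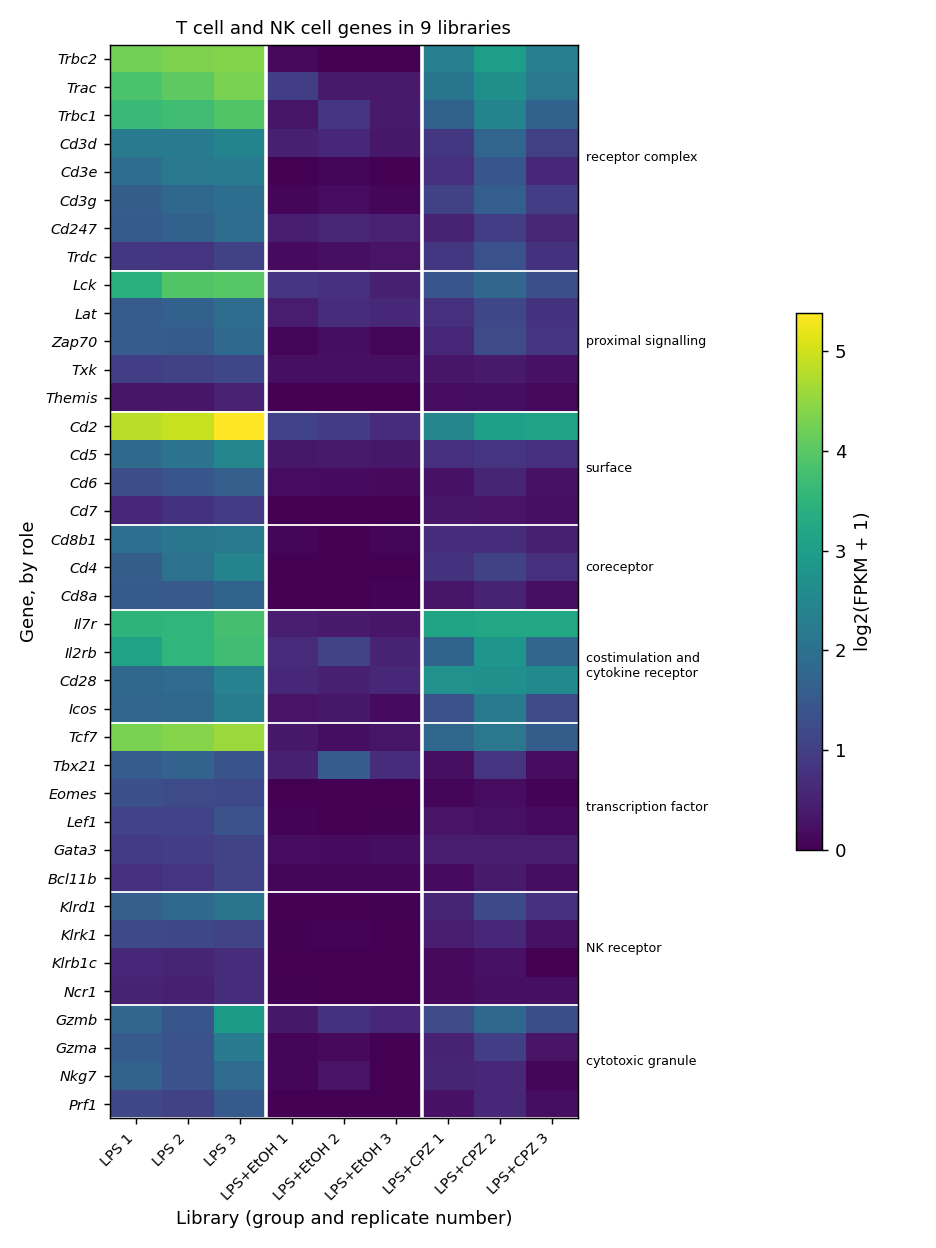
Level of each of the 38 T and NK cell genes, as log2(FPKM + 1) by colour, in the 9 libraries (columns, 3 per group); rows are grouped by role. The LPS columns are the brightest for most rows, the LPS+EtOH columns are near 0, and among the LPS+CPZ columns replicate 2 stands above the other 2 for most genes.

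Of the 38 genes, 37 were lower in every LPS+EtOH library than in every LPS library. The same held for 65.3% of all genes that reached 1 FPKM in 3 or more libraries, the filter used for the tests, and for 36.8% of those with any value above 0. None lay above every LPS library, where 19.5% and 12.2% of these genes did. The exception was Tbx21, whose groups overlapped. A mean below 10% of the LPS mean was found for 29 of the 38 genes, against 11.0% of the filtered genes, and a mean below 50% for all 38, against 54.1%. In LPS+CPZ, 33 of the 38 lay below every LPS library and 1, Cd28, above, where 50.7% and 22.3% of the filtered genes did (26.8% and 13.4% of those with any value above 0). The 4 genes that overlapped were Icos, Trdc, Gzmb and Cd3g. A mean below 10% of LPS was reached by 1 gene, Eomes, against 1.15% of the filtered genes, and a mean below 50% was found for 32, against 27.8%. Between the treated groups, 34 of the 38 were higher in every LPS+CPZ library than in every LPS+EtOH library, against 62.9% of the filtered genes and 32.4% of those with any value above 0. The other 4, Cd247, Nkg7, Tbx21 and Klrb1c, overlapped, and none lay below (16.0% and 9.49% of all genes).

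Differences were tested with limma on log2(FPKM + 1), and a gene was called at an adjusted p under 0.05 over all genes tested. Under the filter, 30 of the 38 could be tested. Only 11 of these 30 had 3 such libraries outside the LPS group; the other 19 could pass through LPS alone, and a fall was then built into the choice, so the share of these 30 that fell is no evidence. Against LPS, 30 of 30 were called lower in LPS+EtOH and 0 higher, beside 64.6% lower and 19.0% higher of the 11721 genes tested. With CPZ, 27 were called lower, 1 was called higher and 2 (Icos and Gzmb) were not called, beside 48.4% lower and 20.7% higher of all tested. In LPS+CPZ against LPS+EtOH, 22 were called higher, 0 lower and 8 were not called, beside 61.4% higher and 15.2% lower. At an unadjusted p under 0.05, limma also gave 0 higher in LPS+EtOH against LPS and 0 lower in LPS+CPZ against LPS+EtOH, with either filter. Beside the latter count, leaving out LPS+EtOH replicate 1 or LPS+CPZ replicate 2 gave 1 gene called lower, Tbx21, as given with its values further on.

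When every gene with any value above 0 was tested (33417 genes), all 38 entered. Then 37 were called lower in LPS+EtOH against LPS and 0 higher (background 32.3% and 9.55%), and 34 lower with 1 higher in LPS+CPZ against LPS (background 21.2% and 9.58%). Between the treated groups 23 were called higher and 0 lower (background 25.7% and 7.23%), and 15 were not called. The median log2 change of the 38 was -1.53, -1.01 and 0.55 in the 3 comparisons, beside -0.02, -0.01 and 0.02 over all 33417 genes. Only 11721 of the 33417 reached 1 FPKM in 3 libraries. Genes near 0 FPKM can hardly move on the log2(FPKM + 1) scale. The medians and shares over all 33417 are therefore low for that reason too, and are no close match to the 38. Most genes of these libraries were lower in LPS+EtOH on the FPKM scale: over the 11721 filtered genes the median log2 change was -0.82 in LPS+EtOH against LPS, -0.33 in LPS+CPZ against LPS and 0.55 in LPS+CPZ against LPS+EtOH. Median-ratio scaling of the libraries brought these to -0.08, -0.08 and 0.08, and the medians of the 30 tested T and NK cell genes from -1.67, -1.13 and 0.80 to -1.24, -0.86 and 0.50. On that scale 29 of 30 were called lower in LPS+EtOH against LPS and 0 higher (background 42.1% and 37.8%), 25 lower and 1 higher in LPS+CPZ against LPS (34.1% and 27.5%), and 19 higher and 1 lower in LPS+CPZ against LPS+EtOH (35.6% and 31.4%). With both changes, any value above 0 and median-ratio scaling, 35 of 38 were called lower and 0 higher in LPS+EtOH against LPS (background 20.3% and 19.1%), 31 lower and 1 higher in LPS+CPZ against LPS (13.5% and 11.3%), and 20 higher and 0 lower between the treated groups (14.8% and 14.9%).

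The genes differed in how much of their LPS level was seen in LPS+CPZ. The LPS+CPZ mean ran from 5.77% of the LPS mean for Eomes to 171% for Cd28, with a median of 26.2% over the 38. At the upper end stood Cd28, Trdc (117%), Icos (73.9%), Il7r (72.0%) and Cd3g (55.3%). At the lower end, next to Eomes, stood Tcf7 (12.9%), Lef1 (13.2%), Cd8a (14.0%) and Lck (14.5%). By role, summed over genes, the costimulatory and cytokine receptors were at 70.1% of LPS and the transcription factors at 14.0%, with the receptor complex at 28.9%, proximal signalling at 21.4%, surface proteins at 19.9%, coreceptors at 19.5%, NK receptors at 28.5% and granule proteins at 31.4%. In LPS+EtOH the median gene was at 3.47% of LPS, and the role sums were between 0.673% (coreceptors) and 7.23% (proximal signalling). The role sums lean on their most abundant genes, such as Cd2, Lck and Tcf7. In LPS+CPZ the median gene was at 73.0% of LPS for costimulatory and cytokine receptors and 38.0% for proximal signalling. It was at 29.3% for the receptor complex, 28.9% for NK receptors and 22.1% for granule proteins. It was at 20.3% for surface proteins, 16.8% for coreceptors and 15.7% for transcription factors. These shares are descriptions, and no test between roles was made.

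**Figure D2:**
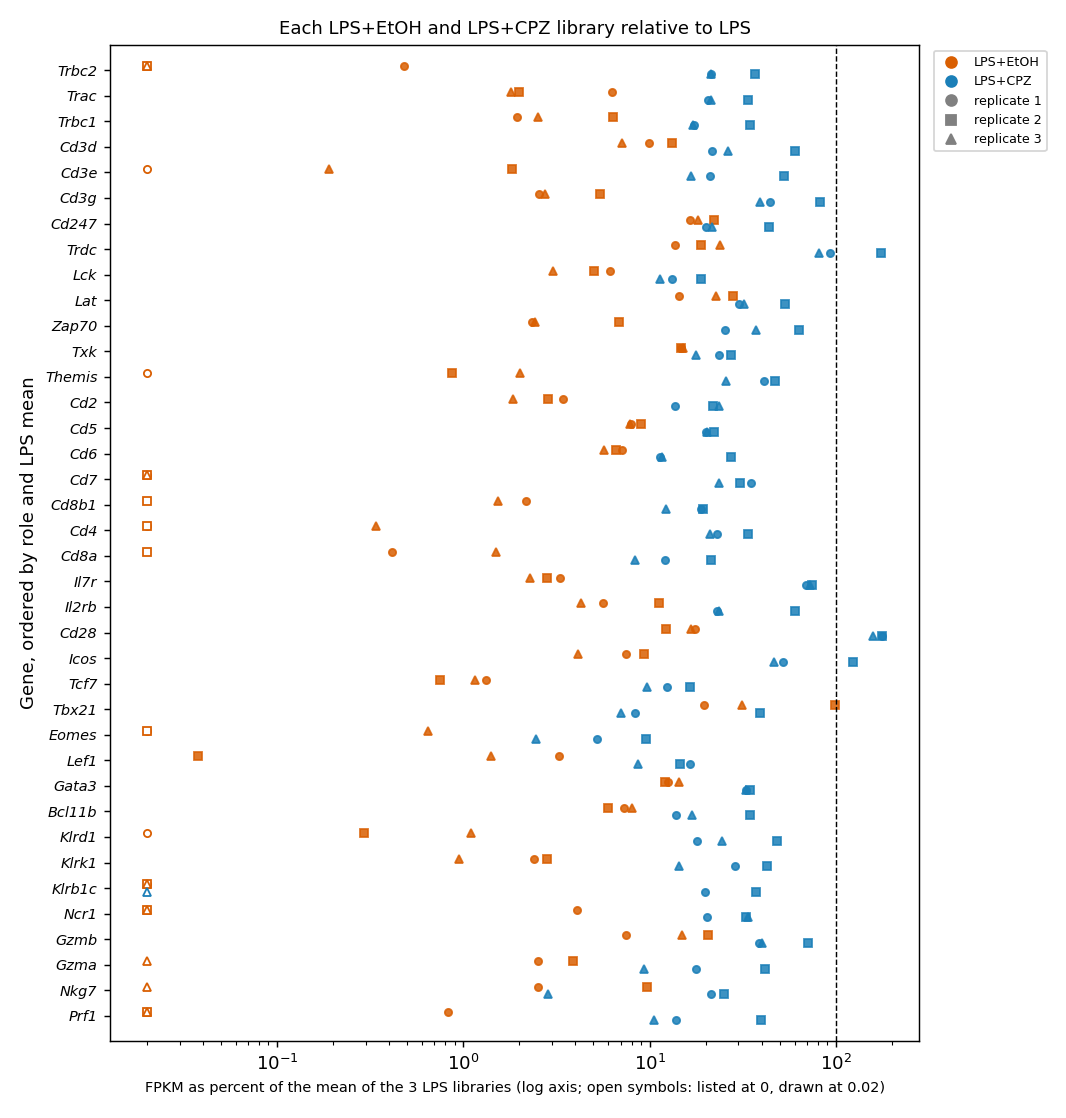
Level of each T and NK cell gene in the 3 LPS+EtOH and the 3 LPS+CPZ libraries as a percent of its LPS mean, on a log axis; values listed at 0 are drawn as open symbols at the left edge. Most LPS+CPZ points lie to the right of the LPS+EtOH points of the same gene, and Cd28 is to the right of 100% in all 3 LPS+CPZ libraries.

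Promoter windows of 3 of these genes are printed. Tcf7 and Lck had the highest LPS means among the genes with a window that were called lower in both comparisons with LPS. Il7r had the largest share of its LPS level in LPS+CPZ among the genes with a window. The sequences are RefSeq windows on GRCm38.p6, from 250 bases before to 50 bases after the start. They lie on the minus strand and are written 5′ to 3′. The window of Tcf7, taken at the more upstream of its 2 starts, is chr11:52282965-52283264. That of Lck, also at the more upstream of 2 starts, is chr4:129573592-129573891, and that of Il7r is chr15:9529827-9530126. Capitals mark matches, on either strand, to AGGAAG (an ETS factor core) or TGTGGT (a RUNX core).
Tcf7: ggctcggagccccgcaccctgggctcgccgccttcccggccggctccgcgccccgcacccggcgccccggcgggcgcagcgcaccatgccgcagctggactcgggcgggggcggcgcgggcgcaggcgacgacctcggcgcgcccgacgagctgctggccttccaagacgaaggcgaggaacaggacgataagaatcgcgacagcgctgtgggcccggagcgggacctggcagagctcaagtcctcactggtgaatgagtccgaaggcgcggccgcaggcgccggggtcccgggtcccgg
Lck: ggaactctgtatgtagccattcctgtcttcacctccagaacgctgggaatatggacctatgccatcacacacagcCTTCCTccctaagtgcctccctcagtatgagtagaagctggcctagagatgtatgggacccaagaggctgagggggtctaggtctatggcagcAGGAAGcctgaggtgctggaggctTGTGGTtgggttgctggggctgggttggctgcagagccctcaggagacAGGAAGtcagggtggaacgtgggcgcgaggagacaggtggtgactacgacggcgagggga
Il7r: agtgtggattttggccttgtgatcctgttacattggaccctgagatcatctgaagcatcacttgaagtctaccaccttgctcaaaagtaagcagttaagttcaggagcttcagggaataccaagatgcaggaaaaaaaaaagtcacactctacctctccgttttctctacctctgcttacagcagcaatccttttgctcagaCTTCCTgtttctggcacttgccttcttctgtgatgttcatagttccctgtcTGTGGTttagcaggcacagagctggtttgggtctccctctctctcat
The Lck window holds 3 matches to AGGAAG and 1 to TGTGGT, the Il7r window 1 of each, and the Tcf7 window none. The Tcf7 window holds an atg (atgccgcagctggac) with no stop in its frame up to the window's end. Part of it may therefore be coding sequence, and its lack of matches may not describe a promoter. Windows were found for 25 of the 38 genes. AGGAAG was in 14 of these 25 (56.0%, against 35.1% of 27025 genes with a window) and TGTGGT in 10 (40.0% against 16.9%). CTTTGA, a TCF and LEF core, was in 6 (24.0% against 16.2%), GGTGTG, a T-box core, in 5 (20.0% against 19.0%), and AGATAA, the core that GATA factors read, in 1 (4.0% against 11.4%). The motifs were searched on both strands, none contains another, and a match is a description of the letters.

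Trac, the constant part of the alpha chain (ENSMUSG00000076928), was at 13.6, 15.5 and 18.6 FPKM under LPS, 1.00, 0.317 and 0.288 under LPS+EtOH, and 3.28, 5.37 and 3.40 under LPS+CPZ. No groups overlapped, and LPS+CPZ replicate 2 was the highest of its group. On the log2(FPKM + 1) scale Trac fell by 3.48 ± 0.21 (SE; limma adjusted p = 1.53e-07) in LPS+EtOH against LPS and by 1.76 ± 0.21 in LPS+CPZ against LPS (adjusted p = 3.88e-05), and it was 1.71 higher in LPS+CPZ than in LPS+EtOH (adjusted p = 3.86e-05).

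Trbc1 and Trbc2, the beta chain constant genes, are closely related copies. A transcript of each, of 737 and 692 bases, was compared by local alignment. They matched at 95.59% of 521 aligned positions, and the parts outside were not compared. Reads of the aligned part may be split between Trbc1 and Trbc2. Their sum was 29.4, 31.6 and 33.9 FPKM under LPS, 0.335, 0.799 and 0.316 under LPS+EtOH, and 6.27, 11.4 and 6.22 under LPS+CPZ. The sum was thus lowest in LPS+EtOH, at 1.53% of the LPS mean, and at 25.1% in LPS+CPZ. Taken singly, Trbc2 was at 17.9 to 19.8 FPKM in LPS and listed at 0 in 2 of 3 LPS+EtOH libraries (0.0910 in the other), and Trbc1 was at 11.5 to 14.1 in LPS and 0.244 to 0.799 in LPS+EtOH.

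The 3 CD3 chains and the zeta chain Cd247 carry the signalling tails of the receptor. Cd3e was at 2.78, 3.48 and 3.60 FPKM under LPS, 0, 0.0601 and 0.00627 under LPS+EtOH, and 0.690, 1.72 and 0.547 under LPS+CPZ. It fell by 2.06 ± 0.19 and by 1.15 ± 0.19 on the log2 scale against LPS (limma adjusted p = 1.91e-06 and 0.000305). Cd3d ranged over 3.59 to 4.41 FPKM under LPS, 0.279 to 0.516 under LPS+EtOH and 0.843 to 2.36 under LPS+CPZ, and was called in all 3 comparisons; its rise from LPS+EtOH to LPS+CPZ was 0.74, and 0.48 without LPS+CPZ replicate 2 (adjusted p = 0.00845). That rise of Cd3d was not called with median-ratio scaling (0.44, adjusted p = 0.0564), with quantile scaling (0.41, adjusted p = 0.0839) or with median-ratio scaling of all genes above 0 (adjusted p = 0.146).

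Cd3g was at 2.02, 2.48 and 2.87 FPKM in LPS and at 1.09, 2.03 and 0.961 in LPS+CPZ, so that LPS+CPZ replicate 2 reached the lowest LPS library. It fell by 0.57 in LPS+CPZ against LPS (limma adjusted p = 0.00946), a call that was lost with median-ratio scaling (-0.33, adjusted p = 0.060) and with quantile scaling (-0.27, adjusted p = 0.125). Cd247 was at 1.88 to 2.73 FPKM under LPS, 0.375 to 0.503 under LPS+EtOH and 0.454 to 0.995 under LPS+CPZ. It fell against LPS in both comparisons, by 1.19 (0.65 with median-ratio scaling) and 1.00. The treated groups differed by 0.19 (95% interval -0.13 to 0.51, adjusted p = 0.247), and that sign turned with median-ratio and quantile scaling (-0.09 and -0.18). Exons of Cd247 overlap Pou2f1, a gene on the opposite strand with up to 5.27 FPKM, and those of Cd3e overlap the antisense gene Gm48719, with up to 0.549 FPKM. How the counting used strand is not given in the sources used here, so reads of overlapping genes may be shared.

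Trdc, the constant part of the delta chain, marks gamma-delta T cells. It did not reach 1 FPKM in 3 libraries: it was at 0.820, 0.772 and 1.09 FPKM under LPS, 0.123, 0.169 and 0.214 under LPS+EtOH, and 0.834, 1.57 and 0.730 under LPS+CPZ. LPS and LPS+CPZ overlapped, while LPS+EtOH lay below both. Among all genes with any value above 0 it fell by 0.69 in LPS+EtOH against LPS (limma adjusted p = 0.00719) and differed by 0.09 in LPS+CPZ against LPS (95% interval -0.27 to 0.45, adjusted p = 0.728). With median-ratio scaling the fall of Trdc in LPS+EtOH was not called (-0.37, adjusted p = 0.0621). Its exons overlap an antisense gene and a delta variable segment listed at up to 0.158 and 0.209 FPKM. A difference in response between Trdc and Trac was not tested.

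Among the signalling proteins next to the receptor, Lck, the kinase that starts the signal and whose window is printed with that of Tcf7, was the most abundant. Its values were 9.68, 14.2 and 14.9 FPKM under LPS, 0.795, 0.651 and 0.390 under LPS+EtOH, and 1.70, 2.44 and 1.48 under LPS+CPZ, with no overlap. Lck fell by 3.10 ± 0.18 in LPS+EtOH and by 2.27 ± 0.18 in LPS+CPZ against LPS (limma adjusted p = 1.35e-07 and 2.89e-06), and was 0.83 higher in LPS+CPZ than in LPS+EtOH (adjusted p = 0.00196). This last difference of Lck was 0.46 with median-ratio scaling (adjusted p = 0.0334), and its call was lost with quantile scaling (0.39, adjusted p = 0.0831) and with median-ratio scaling of all genes above 0 (adjusted p = 0.0879).

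Zap70, the kinase that docks on the CD3 and zeta tails, was at 1.89 to 2.60 FPKM under LPS, 0.0502 to 0.146 under LPS+EtOH and 0.542 to 1.35 under LPS+CPZ, and was called in all 3 comparisons (log2 changes -1.53, -0.74 and 0.79). Lat, the adaptor, was at 1.91 to 2.77, 0.327 to 0.638 and 0.688 to 1.21 FPKM. It fell by 1.13 (0.58 with median-ratio scaling) and 0.81 against LPS. The difference of 0.32 between the treated groups was not called (adjusted p = 0.0608), although the groups did not overlap: it was called without LPS replicate 3 (adjusted p = 0.0478) and without LPS+CPZ replicate 1 (0.40, adjusted p = 0.0458) and with rescaling to TPM (0.57, adjusted p = 0.0244), and its sign turned with quantile scaling (-0.07).

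The surface proteins of T and NK cells fell in both comparisons with LPS. Cd2, an adhesion receptor, had the highest level of all 38 under LPS: 27.5, 29.3 and 40.7 FPKM, against 1.12, 0.923 and 0.598 under LPS+EtOH and 4.44, 7.16 and 7.68 under LPS+CPZ. It fell by 4.14 ± 0.21 and 2.18 ± 0.21 against LPS (limma adjusted p = 6.18e-08 and 7.91e-06) and was 1.96 higher in LPS+CPZ than in LPS+EtOH. Cd5 and Cd6, scavenger-type receptors that tune receptor signalling, were at 2.63 to 4.46 and 1.42 to 2.12 FPKM under LPS, 0.268 to 0.307 and 0.0989 to 0.124 under LPS+EtOH, and 0.683 to 0.761 and 0.199 to 0.474 under LPS+CPZ. Both fell against LPS, by 1.76 and 1.35 for Cd5 and by 1.29 and 1.09 for Cd6, while only the treated groups' difference of Cd5 was called (0.42, adjusted p = 0.0182; 0.21 and 0.131 for Cd6). The call of Cd5 was lost with median-ratio scaling (0.19, adjusted p = 0.189), with quantile scaling (0.16, adjusted p = 0.271), with the globin genes left out (adjusted p = 0.0565) and when all genes with any value above 0 were tested (adjusted p = 0.0569). That of Cd6 was gained with rescaling to TPM (0.47, adjusted p = 0.0476).

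The coreceptors were at or near 0 FPKM in LPS+EtOH. Cd4, the coreceptor of helper T cells, was at 1.99, 3.05 and 4.33 FPKM under LPS, at 0, 0 and 0.0106 under LPS+EtOH, and at 0.718, 1.05 and 0.663 under LPS+CPZ. Cd8b1, the beta chain of CD8 on cytotoxic T cells, was at 2.91, 3.30 and 3.53 FPKM under LPS, 0.0705, 0 and 0.0498 under LPS+EtOH, and 0.616, 0.629 and 0.396 under LPS+CPZ. Cd8a, the alpha chain, was at 1.86 to 2.32 FPKM under LPS, 0 to 0.0304 under LPS+EtOH and 0.168 to 0.433 under LPS+CPZ. The groups of each were separate. In the limma fit all 3 fell in both comparisons with LPS, by 2.0, 2.03 and 1.57 in LPS+EtOH and by 1.15, 1.46 and 1.24 in LPS+CPZ for Cd4, Cd8b1 and Cd8a. The higher level in LPS+CPZ than in LPS+EtOH was called for each, by 0.84, 0.57 and 0.34, but without LPS+CPZ replicate 2 not for Cd8a (0.25, adjusted p = 0.0533).

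The costimulatory and cytokine receptors were the role with the largest share of its LPS level in LPS+CPZ. Cd28, the main costimulatory receptor of T cells, was at 2.46, 2.70 and 4.22 FPKM under LPS, 0.548, 0.382 and 0.522 under LPS+EtOH, and 5.56, 5.53 and 4.94 under LPS+CPZ. All 3 LPS+CPZ libraries were above all LPS libraries, and the rise against LPS was 0.64 ± 0.15 (limma adjusted p = 0.00348). Cd28 was the only one of the 38 called higher in a comparison with LPS. The rise was 0.62 without LPS+CPZ replicate 2 (adjusted p = 0.0118) and 0.82 without LPS replicate 3 (0.000339), and it was lost when the globin genes were left out and the rest rescaled (0.40, adjusted p = 0.0890). Against LPS, Cd28 fell by 1.45 in LPS+EtOH (0.87 with median-ratio scaling).

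Il7r, a chain of the receptor for interleukin 7, on which naive and memory T cells depend, was at 10.4, 10.7 and 12.9 FPKM under LPS, 0.373, 0.317 and 0.257 under LPS+EtOH, and 7.79, 8.41 and 8.24 under LPS+CPZ. The LPS+CPZ libraries lay just under LPS and far above LPS+EtOH. Il7r fell by 3.22 ± 0.11 in LPS+EtOH against LPS and by 0.42 ± 0.11 in LPS+CPZ against LPS (limma adjusted p = 2.41e-08 and 0.00672). The second call was lost with median-ratio scaling (-0.13, adjusted p = 0.289) and with quantile scaling (-0.14, adjusted p = 0.280). Between the treated groups the difference was 2.80, the largest among the 30 genes tested.

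Icos, a costimulatory receptor induced on activated T cells, was at 2.36, 2.53 and 3.85 FPKM under LPS, 0.217, 0.271 and 0.120 under LPS+EtOH, and 1.51, 3.59 and 1.35 under LPS+CPZ. LPS+CPZ replicate 2 lay within the LPS range and the other 2 below it. The change in LPS+CPZ against LPS was -0.36 (95% interval -0.89 to 0.16, limma adjusted p = 0.197), and -0.67 without LPS+CPZ replicate 2 (adjusted p = 0.00496). It was also called with the globin genes left out (-0.60, adjusted p = 0.0475). Icos fell by 1.68 in LPS+EtOH against LPS (adjusted p = 5.41e-05).

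Il2rb, a chain of the interleukin 2 and interleukin 15 receptors found on NK and T cells, was at 7.59, 10.6 and 12.2 FPKM under LPS, 0.572, 1.15 and 0.436 under LPS+EtOH, and 2.35, 6.15 and 2.40 under LPS+CPZ. Its groups were separate, with LPS+CPZ replicate 2 well above the other 2 libraries of its group. Il2rb fell by 2.70 and by 1.34 against LPS (limma adjusted p = 6.79e-06 and 0.00197). It was 1.36 higher in LPS+CPZ than in LPS+EtOH, a call lost with median-ratio scaling of all genes above 0 (0.94, adjusted p = 0.0559).

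**Figure D3:**
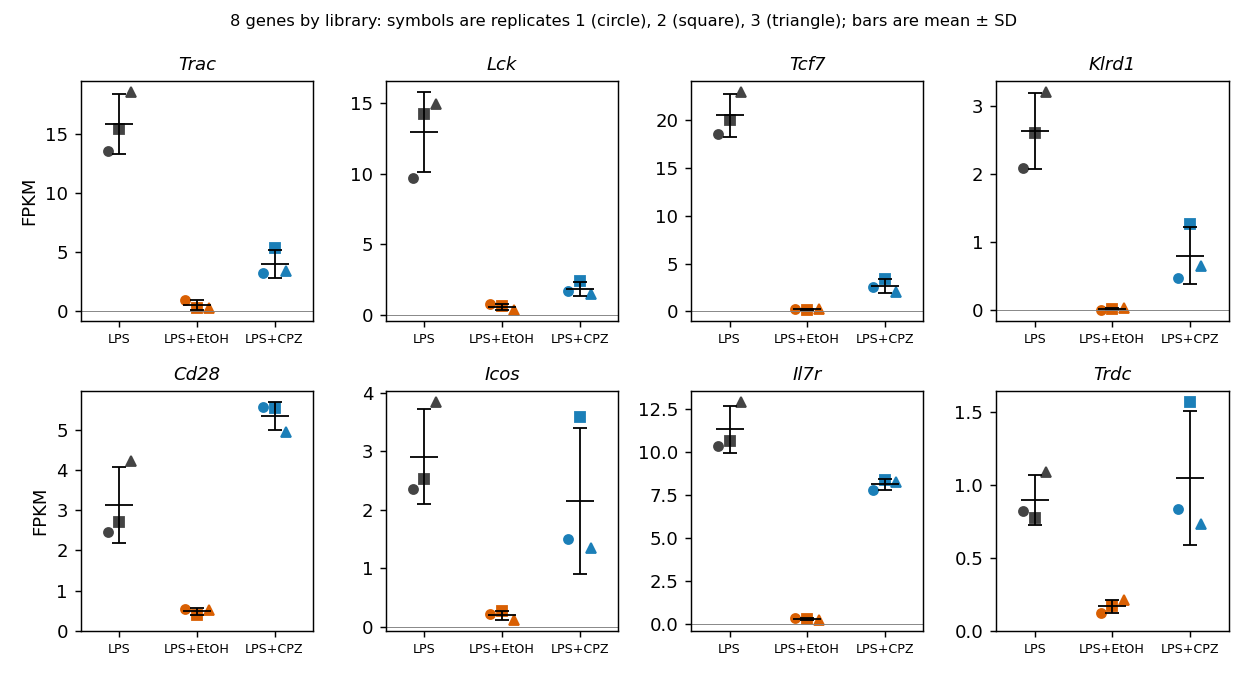
FPKM of Trac, Lck, Tcf7, Klrd1, Cd28, Icos, Il7r and Trdc in each of the 9 libraries (symbols by replicate), with the mean and SD of each group of 3; each panel has its own axis from 0. In the Cd28 panel the LPS+CPZ libraries are the highest, in the Trdc panel they overlap LPS, and in the Trac, Lck and Tcf7 panels they lie between LPS+EtOH and LPS.

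Tcf7, a transcription factor of naive and memory T cells, was at 18.6, 20.1 and 23.0 FPKM under LPS, 0.271, 0.154 and 0.236 under LPS+EtOH, and 2.55, 3.39 and 1.99 under LPS+CPZ. No groups overlapped. It fell by 4.14 ± 0.15 in LPS+EtOH and by 2.58 ± 0.15 in LPS+CPZ against LPS (limma adjusted p = 2.65e-08 and 3.19e-07). Its relative Lef1 was at 1.11 to 1.59 FPKM under LPS, 0.000481 to 0.0415 under LPS+EtOH and 0.111 to 0.210 under LPS+CPZ, and fell by 1.15 and 0.95. The treated groups' difference was called for Tcf7 (1.56) but not for Lef1 (0.20, adjusted p = 0.0974); for Lef1 it was called without LPS replicate 3 (adjusted p = 0.0395), with rescaling to TPM (0.50, adjusted p = 0.0189) and with only the 2 groups compared (adjusted p = 0.0279).

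Eomes, a T-box factor of NK and memory cytotoxic cells, was at 1.47, 1.40 and 1.27 FPKM under LPS, 0, 0 and 0.00889 under LPS+EtOH, and 0.0724, 0.133 and 0.0340 under LPS+CPZ. It fell by 1.25 and 1.14 against LPS (limma adjusted p = 2.31e-07 and 1.28e-06). The treated groups did not overlap, and their difference was 0.11 (95% interval -0.08 to 0.29), which was not called. With a pseudocount of 0.1, limma called Eomes higher in LPS+CPZ than in LPS+EtOH (0.77, adjusted p = 0.0382). Its relative Tbx21, the T-box factor of type 1 helper T cells and NK cells, had another order. It was at 1.95, 2.24 and 1.63 FPKM under LPS, 0.382, 1.92 and 0.606 under LPS+EtOH, and 0.162, 0.759 and 0.136 under LPS+CPZ, so that LPS+EtOH replicate 2 lay within the LPS range.

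Tbx21 fell by 1.15 in LPS+CPZ against LPS (limma adjusted p = 0.00266), which was lost with median-ratio scaling of all genes above 0 (-0.88, adjusted p = 0.1099). In LPS+EtOH against LPS it fell by 0.65 (adjusted p = 0.0374), a call lost without LPS replicate 1 (adjusted p = 0.0758), without LPS replicate 2 (-0.58, adjusted p = 0.102), without LPS+EtOH replicate 1 (-0.44, adjusted p = 0.152) and without LPS+EtOH replicate 3 (-0.54, adjusted p = 0.116). With median-ratio scaling it was -0.04 (adjusted p = 0.901), and its sign turned with quantile scaling (0.10). In LPS+CPZ against LPS+EtOH, Tbx21 differed by -0.49 (adjusted p = 0.107), and it was called lower without LPS+EtOH replicate 1 (-0.71, adjusted p = 0.0347) and without LPS+CPZ replicate 2 (-0.70, adjusted p = 0.0370). It was also called lower there with median-ratio scaling (-0.84).

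Of the NK receptors, Klrd1 (CD94, the partner of the NKG2 receptors) was at 2.09, 2.60 and 3.20 FPKM under LPS, 0, 0.00768 and 0.0288 under LPS+EtOH, and 0.473, 1.27 and 0.648 under LPS+CPZ. It fell by 1.83 and 1.03 against LPS and was 0.80 higher in LPS+CPZ than in LPS+EtOH (limma adjusted p = 1.63e-06, 0.000253 and 0.00111). Klrk1 (NKG2D, an activating receptor) was at 1.15 to 1.27 FPKM under LPS, 0.0117 to 0.0345 under LPS+EtOH and 0.176 to 0.526 under LPS+CPZ, and was called in the same directions (-1.12, -0.73 and 0.39). Klr genes form a family of related copies, so reads may be shared among them.

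The granule genes varied within groups. Gzmb (granzyme B, a protease of cytotoxic granules) was at 2.43, 1.70 and 6.60 FPKM under LPS, 0.267, 0.732 and 0.536 under LPS+EtOH, and 1.39, 2.55 and 1.44 under LPS+CPZ. LPS replicate 3 was far above the other 2, and LPS+CPZ overlapped LPS. Gzmb fell by 1.46 in LPS+EtOH against LPS (limma adjusted p = 0.00160), a call lost with quantile scaling (-0.76, adjusted p = 0.0589) and with median-ratio scaling of all genes above 0 (-0.88, adjusted p = 0.0818). Its change in LPS+CPZ against LPS was -0.59 (95% interval -1.31 to 0.14, adjusted p = 0.131). That change was -0.90 without LPS replicate 2 (adjusted p = 0.0301) and -0.15 without LPS replicate 3 (adjusted p = 0.548). Gzmb rose by 0.87 in LPS+CPZ against LPS+EtOH (adjusted p = 0.0312), a call lost without LPS+EtOH replicate 1 (0.75, adjusted p = 0.0956), without LPS+EtOH replicate 3 (adjusted p = 0.0609) and without LPS+CPZ replicate 2 (0.69, adjusted p = 0.106). It was lost too with median-ratio scaling (0.53, adjusted p = 0.159), with quantile scaling (0.48, adjusted p = 0.234) and when all genes above 0 were tested (adjusted p = 0.116).

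Gzma (granzyme A) was at 1.89, 1.60 and 3.69 FPKM under LPS, 0.0601, 0.0925 and 0 under LPS+EtOH, and 0.422, 0.995 and 0.224 under LPS+CPZ, and fell by 1.64 and 1.11 against LPS. Prf1 (perforin, which forms pores in target cells) was at 1.06 to 1.86 FPKM under LPS, 0 to 0.0115 under LPS+EtOH and 0.146 to 0.545 under LPS+CPZ, and fell by 1.23 and 0.88. Nkg7, a granule membrane protein, was at 1.59 to 2.70, 0 to 0.209 and 0.0617 to 0.541 FPKM, and fell by 1.53 and 1.23. The groups of Gzma and Prf1 did not overlap, and LPS+EtOH and LPS+CPZ overlapped for Nkg7.

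The calls on the treated groups' differences of these 3 genes changed when single libraries were left out. In some of these fits the size of the difference hardly moved. For Prf1 it was 0.35 (limma adjusted p = 0.0444) and was lost without any 1 of the LPS+EtOH libraries (adjusted p = 0.0861, 0.0965 and 0.0926 for replicates 1, 2 and 3) and without LPS+CPZ replicate 2 (0.22, adjusted p = 0.167). It was lost too when all genes above 0 were tested (adjusted p = 0.131), with the globin genes left out (adjusted p = 0.0893) and with eBayes without trend (adjusted p = 0.0546). For Gzma it was 0.53 (adjusted p = 0.0520) and was called without LPS replicate 2 (adjusted p = 0.0419), without LPS replicate 3 (adjusted p = 0.0131) and without LPS+CPZ replicate 3 (0.68, adjusted p = 0.0276), as well as with rescaling to TPM (1.11, adjusted p = 0.00635) and with only the 2 groups compared (adjusted p = 0.0165). For Nkg7 it was 0.30 (adjusted p = 0.124) and was called without LPS+CPZ replicate 3 (0.47, adjusted p = 0.0225).

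The 8 genes that did not reach 1 FPKM in 3 libraries were Trdc, Cd7 (a T and NK cell surface protein), the transcription factors Bcl11b and Gata3, the thymocyte signalling protein Themis, the Tec family kinase Txk and the NK receptors Ncr1 and Klrb1c. They ranged over 0.248 to 1.22 FPKM under LPS, 0 to 0.214 under LPS+EtOH and 0 to 1.57 under LPS+CPZ, the highest being Trdc. Gata3, the factor of type 2 helper T cells, was at 0.892, 0.981 and 1.14 FPKM under LPS, 0.126, 0.121 and 0.145 under LPS+EtOH, and 0.329, 0.349 and 0.332 under LPS+CPZ. Ncr1 (NKp46) was at 0.392 to 0.618 FPKM under LPS, 0 to 0.0197 under LPS+EtOH and 0.0993 to 0.164 under LPS+CPZ. With any value above 0 tested, all 8 were called lower in LPS+EtOH against LPS by limma (background 32.3%), and all but Trdc in LPS+CPZ against LPS (background 21.2%); the call of Trdc in LPS+EtOH was lost with median-ratio scaling.

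The counts were also taken without LPS+CPZ replicate 2 or LPS replicate 3. Without LPS+CPZ replicate 2, limma called 28 genes lower and 1 higher in LPS+CPZ against LPS, and 19 higher and 1 lower in LPS+CPZ against LPS+EtOH. Without LPS replicate 3, whose globin share was the highest of the 9, the counts were 30 lower in LPS+EtOH, 27 lower and 1 higher in LPS+CPZ, and 25 higher in LPS+CPZ against LPS+EtOH. Shares over all genes are not given for these fits, so the counts only show how far the reported ones moved. In the main fit 64.6% of all genes tested were lower in LPS+EtOH against LPS. In LPS+CPZ against LPS 48.4% were lower and 20.7% higher. In LPS+CPZ against LPS+EtOH 61.4% were higher and 15.2% lower. The genes whose call changed without either library are given beside their values.

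A further list of 64 T and NK cell genes was read in the same way; 60 were in the table and 36 could be tested. In LPS+EtOH against LPS 32 fell, 3 rose (Lcp2, Il18r1 and Il18rap) and 1 (Fasl) was not called by limma. With CPZ, 32 fell against LPS, 1 rose (Cxcr6) and 3 (Il18r1, Fasl and Pdcd1) were not called. Between the treated groups 28 rose in LPS+CPZ, 3 fell (Lcp2, Il18r1 and Il18rap) and 5 were not called. The median log2 changes were -2.36, -1.11 and 0.75. The backgrounds are those given for the 30 genes, and the same filter applies. When all 60 were tested among the genes with any value above 0, 51 fell, 3 rose and 6 were not called in LPS+EtOH against LPS. The background there was 32.3% lower and 9.55% higher. In LPS+CPZ 40 fell, 0 rose and 20 were not called against LPS (background 21.2% lower and 9.58% higher). Against LPS+EtOH, 32 rose, 3 fell and 25 were not called (background 25.7% higher and 7.23% lower). The median log2 changes of these 60 were -1.31, -0.69 and 0.47. With median-ratio scaling of the 36, 20 rose and 5 fell between the treated groups (background 35.6% and 31.4%).

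The 3 with the highest LPS mean are also made by other leukocytes. Ccl5, a chemokine, averaged 138 ± 46.9 FPKM under LPS, 4.58 ± 0.533 under LPS+EtOH and 77.9 ± 20.2 under LPS+CPZ (SD, n = 3). Ccr7, a homing receptor of T and dendritic cells, averaged 132 ± 31.5, 12.4 ± 2.54 and 71.5 ± 24.1 FPKM. Lcp2 (SLP-76), an adaptor that works with Lat in T cells and is also found in myeloid cells, averaged 133 ± 36.7, 212 ± 6.15 and 51.7 ± 5.35 FPKM, so its order of groups was the reverse of that of Lat between the treated groups.

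The genes that went against the majority were few. Il18rap and Il18r1, both chains of the interleukin 18 receptor, averaged 20.0 ± 1.79 and 3.36 ± 0.0230 FPKM under LPS, 62.2 ± 3.01 and 7.66 ± 0.580 under LPS+EtOH, and 12.8 ± 3.71 and 3.70 ± 1.30 under LPS+CPZ. Cxcr6, a chemokine receptor of tissue T and NK cells, was at 2.02, 2.59 and 3.83 FPKM under LPS, 0.126, 0.400 and 0.248 under LPS+EtOH, and 3.06, 11.3 and 4.84 under LPS+CPZ. LPS+CPZ replicate 2 was far above the rest, replicate 3 lay above every LPS library, and replicate 1 lay within the LPS range. The difference of Cxcr6 from LPS was 0.83 (limma adjusted p = 0.0480). It was not called without LPS+CPZ replicate 2 (0.38, adjusted p = 0.1503), with any value above 0 tested (adjusted p = 0.149) or with the globin genes left out (0.59, adjusted p = 0.132), and leaving out other single libraries moved its adjusted p between 0.00632 and 0.144.

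Other cell types' markers moved with the groups as well. The filter of 1 FPKM in 3 libraries also chose which genes of these lists were tested. A gene that passed it through LPS alone had its fall built in. Counts of falls against LPS in these lists are therefore descriptions and no evidence. The 16 B cell genes summed to 1637 to 2339 FPKM under LPS, 153 to 212 under LPS+EtOH and 1253 to 1480 under LPS+CPZ, with Vpreb3 at 0 in all LPS+EtOH libraries. Ighm, the immunoglobulin mu chain, made up most of that sum (1249 ± 218, 120 ± 18.2 and 1160 ± 89.2 FPKM), while Cd79a, part of the B cell receptor, averaged 177 ± 39.4, 14.1 ± 3.53 and 51.4 ± 8.14 FPKM. Of 15 B cell genes tested by limma, 15 fell in LPS+EtOH and 14 in LPS+CPZ against LPS, and 13 rose in LPS+CPZ against LPS+EtOH (background 64.6%, 48.4% and 61.4%). The T and NK sum divided by the B cell sum was 0.0860 to 0.102 under LPS, 0.0390 to 0.0674 under LPS+EtOH and 0.0332 to 0.0537 under LPS+CPZ. Ighm carried 60.3 to 61.7% of the B cell sum under LPS and 82.6 to 84.6% under LPS+CPZ. Without it the 15 other B cell genes summed to 635 to 928 FPKM under LPS, 45.3 to 71.1 under LPS+EtOH and 192 to 249.6 under LPS+CPZ, means of 7.02% and 28.8% of LPS in the treated groups. The T and NK sum divided by that sum was 0.225 to 0.264 under LPS, 0.116 to 0.212 under LPS+EtOH and 0.199 to 0.309 under LPS+CPZ, so its LPS+CPZ and LPS ranges overlapped.

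Neutrophil markers (13 genes) summed to 4526 to 6313 FPKM under LPS, 47198 to 52005 under LPS+EtOH and 7613 to 8399 under LPS+CPZ. The calprotectin subunits S100a9 and S100a8 led them, S100a9 at 3369 ± 551, 33420 ± 2070 and 3208 ± 99.4 FPKM and S100a8 at 995 ± 138, 9141 ± 648 and 2752 ± 150 FPKM. Of the 13 tested by limma, 12 rose in LPS+EtOH against LPS (background 19.0%). In LPS+CPZ against LPS, 5 rose and 3 fell (background 20.7% and 48.4%). Macrophage markers (14 genes) summed to 1753 to 2259 FPKM under LPS, 2990 to 3268 under LPS+EtOH and 1199 to 1401 under LPS+CPZ. Of 12 tested, 4 rose and 7 fell in LPS+EtOH (background 19.0% and 64.6%). With median-ratio scaling, 6 rose and 5 fell (background 37.8% and 42.1%). In LPS+CPZ, 3 rose and 8 fell (background 20.7% and 48.4%). None of the 13 neutrophil genes was at 0 in all libraries of a group.

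Erythroid genes (7) summed to 34791 to 107461 FPKM under LPS, 608 to 747 under LPS+EtOH and 153 to 349 under LPS+CPZ, with Slc4a1 at 0 in both treated groups. Hbb-bs and Hba-a1, globin chains, averaged 22726 ± 13775 and 17913 ± 10067 FPKM in LPS. All 6 tested by limma fell in both comparisons with LPS (background 64.6% in LPS+EtOH and 48.4% in LPS+CPZ). Mast cell genes (8) summed to 176 to 204 FPKM under LPS, 205 to 272 under LPS+EtOH and 25.05 to 50.9 under LPS+CPZ, with Ms4a2 at 0 under LPS+EtOH. Hdc, which makes histamine, averaged 116 ± 21.4, 199 ± 17.2 and 12.1 ± 2.17 FPKM, and Cma1, a chymase, 30.3 ± 9.16, 18.2 ± 11.9 and 7.68 ± 4.36 FPKM. Of 7 tested, 3 fell and 1 rose in LPS+EtOH (background 64.6% and 19.0%), and 5 fell in LPS+CPZ (background 48.4%).

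Dendritic cell genes (8) summed to 19.0 to 31.1 FPKM under LPS, 16.3 to 19.5 under LPS+EtOH and 40.5 to 47.5 under LPS+CPZ, with Siglech at 0 in both treated groups. Itgax (CD11c), also made by macrophages, averaged 16.2 ± 5.76, 15.8 ± 2.04 and 38.2 ± 2.98 FPKM, and Zbtb46, a factor of classical dendritic cells, 4.18 ± 0.816, 0.189 ± 0.0517 and 0.462 ± 0.0759 FPKM. Of 4 tested by limma, 2 fell in LPS+EtOH against LPS (background 64.6%). In LPS+CPZ against LPS, 2 fell and 2 rose (background 48.4% and 20.7%). T and NK cell genes were thus low in the treated groups together with B cell and erythroid genes, while neutrophil genes were high in LPS+EtOH. In LPS+CPZ the mast cell and macrophage sums were also below LPS (means at 18.0% and 65.0%). The dendritic cell and neutrophil sums were above it there (168% and 146%). Itgax, also made by macrophages, carried most of that dendritic cell sum, while Zbtb46 was far below its LPS mean. Of the leading neutrophil genes, S100a8 was above its LPS mean in LPS+CPZ and S100a9 was not. FPKM is a share of each library, and the part of these other transcripts, and of the cell makeup of the pools, in the values of the T and NK cell genes was not tested.

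**Figure D4:**
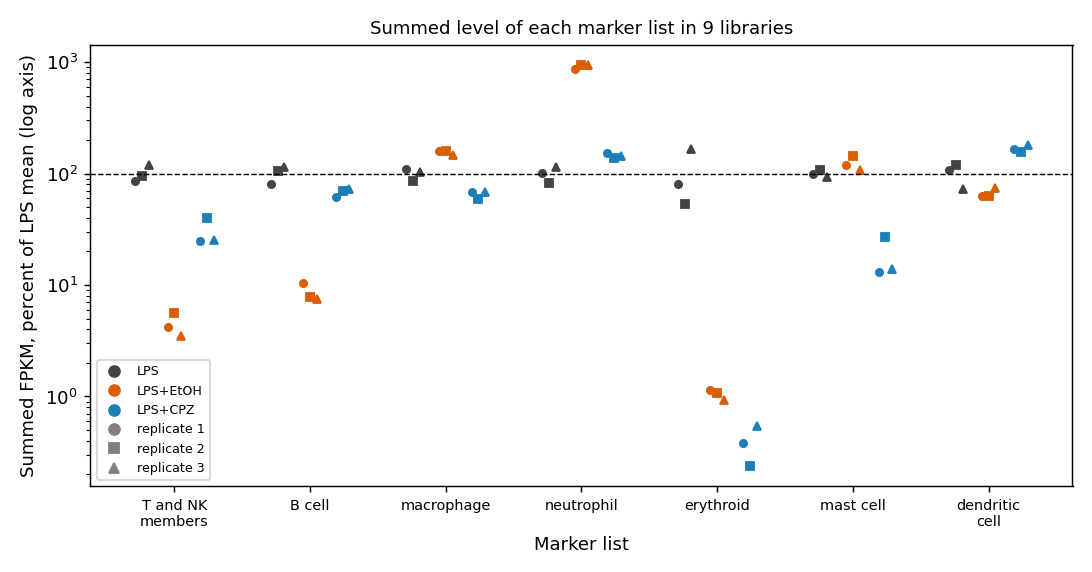
Summed FPKM of each marker list in every library as a percent of the list's LPS mean, on a log axis, with 3 libraries per group. The T and NK cell genes stand at 4.43% in LPS+EtOH and 29.8% in LPS+CPZ on average, next to B cell genes at 8.58% and 67.9% (7.02% and 28.8% without Ighm, which carries most of that sum) and neutrophil genes at 918% and 146%.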

How the data were processed

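RNA was measured in 9 strand-specific TruSeq libraries, pools of 3 RNA samples each, per the labels' protocols. The deposited values are FPKM per gene, per the file headers. STAR and StringTie, both without a version, FastQC 0.11.2 and the human build hg38 are named in the submitters' processing notes. The gene IDs are mouse (55154 of 55335 found in GENCODE M21), so no coordinates from the deposited table are given; those of the promoter windows are RefSeq's. Depth could not be recovered, since 22.7 to 46.7% of a library's low values came within 2% of whole multiples of their commonest step.

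The 11721 genes that reached 1 FPKM in 3 or more libraries were taken as log2(FPKM + 1). All 9 libraries entered 1 fit of limma 3.58.1 (R 4.3.3) with group as its term and trended eBayes, two-sided, with Benjamini-Hochberg adjustment over all genes tested and a threshold of 0.05. A pseudocount of 1 understates changes of low genes. The fit was tested on simulated data. The genes and marker lists were chosen with earlier results of these data known. Named genes were every T and NK cell gene, those with 1 FPKM in 3 libraries with values by role, of the further T and NK list the 3 with the highest LPS mean and those against the majority, and of each other list up to 2 with the highest mean. Alternatives were pseudocounts of 0.1 and 5, a filter of 5 FPKM, a filter of any value above 0, quantile or median-ratio scaling, TPM, globin genes left out, eBayes without trend or robust, only the 2 groups compared, a replicate block and leaving out each library. Testing any value above 0 with median-ratio scaling, and the B cell sum without Ighm, were added after seeing the data. Promoter windows are from RefSeq. Python 3.11.15, numpy 2.4.6, pandas 2.3.3, scipy 1.17.1 and matplotlib 3.10.9 were also used.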

Additional observations from a re-analysis of the deposited data

How the results depend on the processing

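The counts of T and NK cell genes called lower in LPS+EtOH and in LPS+CPZ against LPS, and higher in LPS+CPZ against LPS+EtOH, stayed within 1.5 times of the reported 30, 27 and 22 under all alternatives except the 5 FPKM filter. That filter left 8 genes to test, of which 8, 8 and 8 were called and 0 were higher in LPS+CPZ against LPS. Of these 8, only Il7r had 3 libraries at 5 FPKM outside LPS. A fall was thus built into the choice of the others, and their counts against LPS are no evidence. Shares over all genes are not given for that filter or for the fits that follow, apart from median-ratio scaling. With the globin genes left out, 0 were called higher in LPS+CPZ against LPS, Cd28 being lost. In LPS+CPZ against LPS+EtOH, 1 gene (Tbx21) was called lower with median-ratio scaling, with quantile scaling and with the replicate block. Leaving out each library gave 29 to 30 lower and 0 to 0 higher in LPS+EtOH against LPS, 27 to 28 lower and 1 to 1 higher in LPS+CPZ against LPS, and 0 to 1 lower and 19 to 25 higher in LPS+CPZ against LPS+EtOH. Signs turned for Tbx21 in LPS+EtOH against LPS with quantile scaling (0.10), and in LPS+CPZ against LPS+EtOH for Cd247 with median-ratio scaling (-0.090), quantile scaling (-0.175) and any value above 0 with median-ratio scaling (-0.090) and for Lat with quantile scaling (-0.069); the cause was not tested. Among called changes that kept their call in the 3 comparisons, TPM moved 18 of 30, 9 of 28 and 16 of 22 by over 1.5 times, all upward in size, and a pseudocount of 0.1 moved 22 of 29, 18 of 28 and 21 of 22 upward. A pseudocount of 5 moved 30 of 30, 23 of 28 and 18 of 18 downward.

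Same-numbered libraries of different groups correlated at -0.00645 to 0.260 in their deviations from group means, and differently numbered ones at -0.204 to 0.127. Whether the replicate numbers pair the libraries is not settled by these values, and the main fit did not pair them. With the replicate block, 30 genes were called lower in LPS+EtOH, 27 lower and 1 higher in LPS+CPZ against LPS, and 22 higher and 1 lower in LPS+CPZ against LPS+EtOH; in that last comparison Prf1 was lost (adjusted p = 0.0603), Lat was gained (0.0414) and Tbx21 was called lower (0.0192). Shares over all genes are not given for the replicate block. Depth is unknown, so a value near 0 FPKM has no counting interval.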
